A study of Mus musculus with 16 samples.

Results

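The transcripts of 9 genes that handle stored maternal mRNA were followed in growing mouse oocytes that had lost histone deacetylases. They are Zar1, Zar1l, Ybx2, Cpeb1, Dazl, Zfp36l2, Ddx6, Lsm14b and Patl2, chosen by name as known factors of mRNA storage, translational control and decay in oocytes. These genes, and both gene lists used further below, were chosen with earlier results of these data known. Of the 18820 genes with a tested measurement the named genes make up 9, read by the 10 probe sets to which the platform annotation gives exactly 1 of these symbols. Zar1 had 2 probe sets and each other gene had 1. All 10 were brighter on average than the median tested probe set.

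A growing oocyte makes far more mRNA than it translates. It packs much of that mRNA with RNA-binding proteins into silent particles, because transcription stops before meiosis resumes and the oocyte must then run on what it stored. Regulatory proteins bound mainly in the 3′ untranslated region keep a stored mRNA's poly(A) tail short and its cap blocked. Later they release it for translation or hand it over for destruction.

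RNA came from 16 samples of 80 pooled oocytes each, taken from ovaries of 12-day-old C57BL/6 mice, and each sample was read on 1 Affymetrix Mouse 1.1 ST array. The groups were Hdac1/2 double knockout, Hdac2 knockout, Hdac1 knockout and wild type, with 4 arrays per group that the sample titles call biological replicates. Conditional alleles of Hdac1, Hdac2 or both were deleted by a Zp3-Cre transgene, whose promoter is active in growing oocytes, so that deletion starts within the growth phase and not before it. The sources used here do not say whether the wild-type mice carried the transgene or undeleted conditional alleles. Values are log2 signal as deposited. A gene was called where limma's adjusted p over all 21218 tested probe sets was under 0.05, and only differences that passed are described as a rise or a fall.

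Array medians lay between 4.46 and 4.59, and arrays of a group correlated at 0.992 to 0.995 across probe sets. Hdac1 read 7.54 to 7.75 in the double knockout, 9.55 to 9.77 in the Hdac2 knockout, 6.40 to 6.83 in the Hdac1 knockout and 9.23 to 9.35 in wild type. It was thus lowest in both groups labelled as lacking it, but not equally low. The double knockout lay 1.04 above the Hdac1 knockout (limma adjusted p = 5.22e-08). In the Hdac2 knockout Hdac1 rose by 0.36 against wild type (limma adjusted p = 0.0172). For a dimmer Hdac1 probe set these differences were 1.08 (limma adjusted p = 3.1e-08) and 0.35 (0.0208). The Hdac2 probe set read 10.81 to 10.95 in the double knockout, 10.95 to 11.01 in the Hdac2 knockout, 11.05 to 11.16 in the Hdac1 knockout and 11.02 to 11.18 in wild type. It differed by -0.10 between the Hdac2 knockout and wild type (limma adjusted p = 0.33), so it did not show the deletion there. In the double knockout Hdac2 fell by 0.21 against wild type (limma adjusted p = 0.00274) and by 0.25 against the Hdac1 knockout (limma adjusted p = 0.000685). Since the deleted exons are not given here, the probe set does not check the Hdac2 labels. All 11 oocyte markers, among them Gdf9, Zp3 and Nobox, lay above the tested median. Of the oocyte markers, 3 of 11 (27.3%) fell in the double knockout, namely Figla (-0.56), Ddx4 (-0.32) and Kit (-0.17), where 19.8% of all tested probe sets fell. In a separate fit of only the probe sets above the tested median, 3796 of 10609 fell. Of the other cell types' markers, 2 of 10 for granulosa cells, 0 of 7 for theca and stroma and 2 of 5 for blood, immune and endothelial cells were above that median.

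Promoters are shown for the 3 genes that fell in the double knockout, Patl2, Ybx2 and Dazl, and for the paralogs Zar1 and Zar1l, whose signal was not called in any comparison. A promoter here is the 300 bases from 250 before to 50 after the annotated start, in RefSeq's GRCm38.p6 annotation. The set of promoter sequences used here held 7 of the 9 genes, all but Ddx6 and Zfp36l2. Each promoter shown is printed 5′ to 3′ on the gene's strand. Patl2 lies at chr2:122186140-122186439 (minus strand), Ybx2 at chr11:69935649-69935948 (plus strand, the first of 2 annotated starts), Dazl at chr17:50293571-50293870 (minus strand), Zar1 at chr5:72581035-72581334 (minus strand) and Zar1l at chr5:150518110-150518409 (minus strand). Capitals mark matches, on either strand, to CCAAT (the box bound by NF-Y), to CANNTG (the E-box bound by helix-loop-helix factors such as FIGLA) and to TAATTA or TAATTG (bound by homeodomain factors such as NOBOX). No match shown overlaps another.
Patl2: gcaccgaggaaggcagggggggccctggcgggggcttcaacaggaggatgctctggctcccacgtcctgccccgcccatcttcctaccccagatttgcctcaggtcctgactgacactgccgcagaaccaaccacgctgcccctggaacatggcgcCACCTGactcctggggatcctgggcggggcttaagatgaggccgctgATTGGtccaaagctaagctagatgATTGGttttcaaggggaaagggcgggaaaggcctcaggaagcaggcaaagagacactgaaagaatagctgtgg
Ybx2: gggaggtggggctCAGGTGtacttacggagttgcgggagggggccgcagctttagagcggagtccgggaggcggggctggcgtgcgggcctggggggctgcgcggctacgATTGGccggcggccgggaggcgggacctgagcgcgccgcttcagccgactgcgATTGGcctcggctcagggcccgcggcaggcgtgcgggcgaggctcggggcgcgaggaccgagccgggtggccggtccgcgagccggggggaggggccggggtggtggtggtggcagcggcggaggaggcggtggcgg
Dazl: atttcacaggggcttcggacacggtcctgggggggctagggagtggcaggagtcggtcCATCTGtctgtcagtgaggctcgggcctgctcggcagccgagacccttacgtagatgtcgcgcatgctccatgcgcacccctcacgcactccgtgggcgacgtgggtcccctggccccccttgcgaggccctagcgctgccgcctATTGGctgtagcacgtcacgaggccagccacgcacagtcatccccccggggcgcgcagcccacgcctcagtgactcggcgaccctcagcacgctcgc
Zar1: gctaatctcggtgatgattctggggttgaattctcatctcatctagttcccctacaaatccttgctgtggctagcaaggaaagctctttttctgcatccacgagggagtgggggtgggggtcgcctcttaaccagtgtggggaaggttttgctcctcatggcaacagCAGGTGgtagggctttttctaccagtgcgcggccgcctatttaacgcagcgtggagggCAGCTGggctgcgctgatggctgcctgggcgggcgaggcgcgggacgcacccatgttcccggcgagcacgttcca
Zar1l: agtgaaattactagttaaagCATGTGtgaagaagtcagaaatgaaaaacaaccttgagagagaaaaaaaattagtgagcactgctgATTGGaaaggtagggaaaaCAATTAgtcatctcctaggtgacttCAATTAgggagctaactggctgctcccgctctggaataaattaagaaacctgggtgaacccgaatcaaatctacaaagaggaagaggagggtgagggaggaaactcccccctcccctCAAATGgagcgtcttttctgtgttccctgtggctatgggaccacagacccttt

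A CCAAT match occurred in 5 of the 7 genes with a promoter and in 37.4% of 32851 RefSeq promoters. A CANNTG match occurred in 7 of 7 genes and in 72.3% of all promoters. The TAATTA or TAATTG match was in 1 gene, Zar1l, and in 12.4% of all promoters. Patl2 and the first Ybx2 promoter each held 2 CCAAT matches, Dazl and Zar1l 1 each, and Zar1 none. The first Ybx2 promoter had 78.0% G and C and 40 CpG dinucleotides, Dazl 68.7% and 28, Patl2 60.7% and 10, Zar1 58.7% and 17, and Zar1l 44.3% and 3, beside a median of 52.7% and 7 over all promoters. These matches are descriptions of letters and say nothing of which factor binds.

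In the Hdac1/2 double knockout Patl2, Ybx2 and Dazl fell relative to wild type, Zfp36l2 rose, and Zar1, Zar1l, Cpeb1, Ddx6 and Lsm14b did not pass the test. That is 4 of 9 genes, or 44.4%, where 38.3% of all tested probe sets were called in the same comparison. The 1 gene that rose stands beside 18.5% of probe sets that rose, and the 3 that fell beside 19.8% that fell, so the share called among the 9 was near that of the array at large. The median difference of the 9 genes was 0.01, against -0.01 over all tested probe sets. Their median absolute difference was 0.12 and that of all probe sets 0.15. All 9 genes are brighter than the median tested probe set, and bright probe sets were called more often. With dim probe sets left out 2 of the 9 rose and 3 fell. Beside them 2755 and 3796 of 10609 probe sets did, with a median absolute difference of 0.25. Where a transcript is lower in pooled oocytes, fewer oocytes that carry it and less of it per oocyte cannot be told apart.

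**Figure D1:**
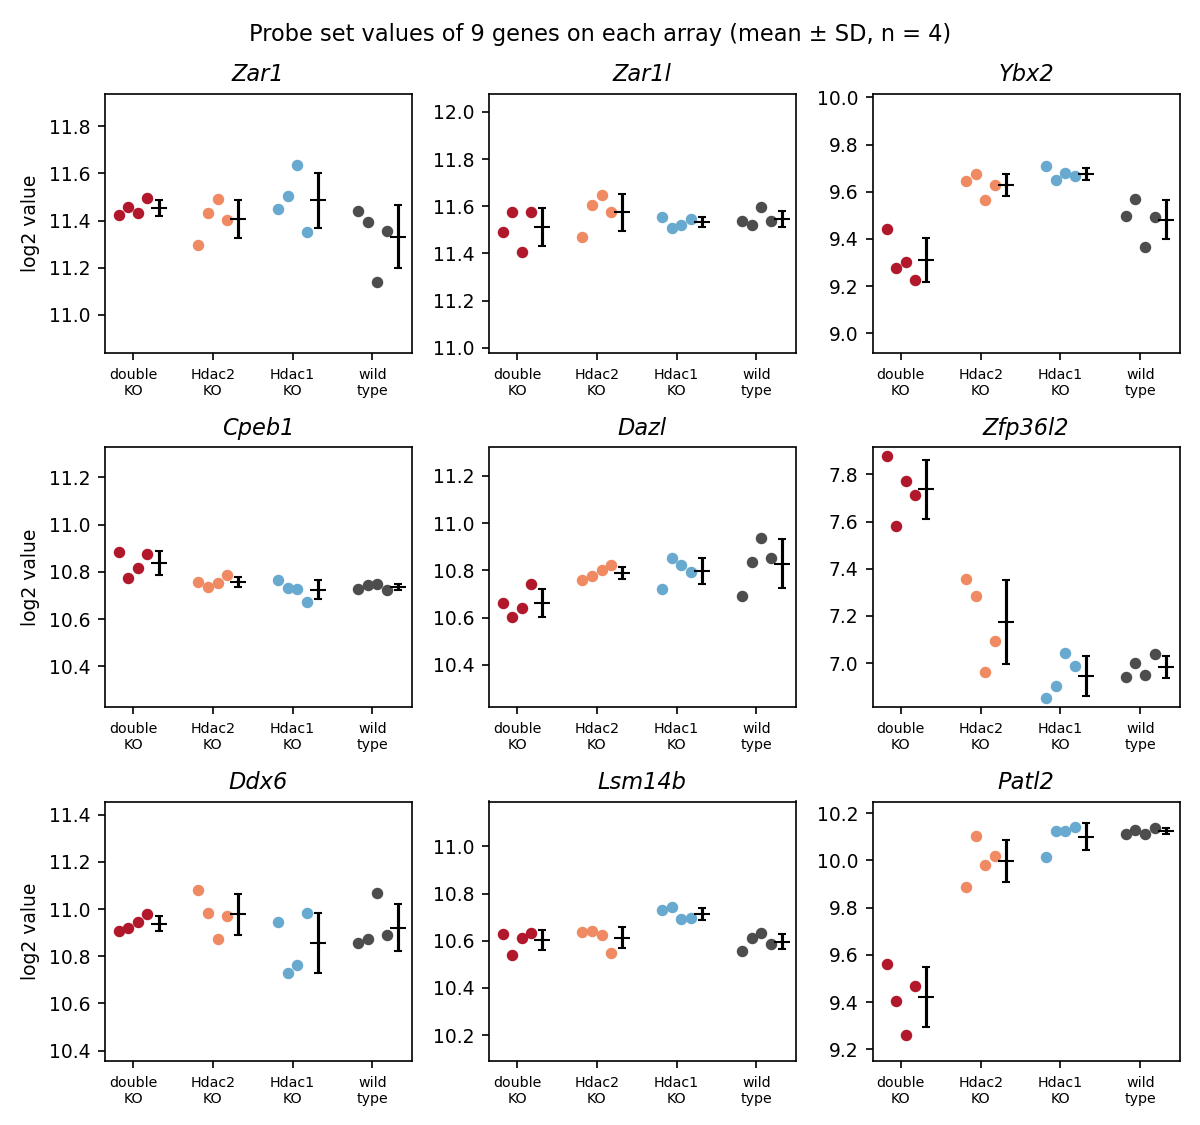
Log2 value (vertical axes, all of the same span) of the brightest probe set of each of the 9 genes on every array, with groups along the horizontal axes. Coloured points are arrays and the black mark with bars is the mean ± SD of 4 arrays. The double-knockout arrays stand below all others for Patl2 and above all others for Zfp36l2, while the groups overlap for Zar1, Zar1l and Ddx6.

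Zar1 and Zar1l encode paired zinc-finger proteins of the oocyte that bind maternal mRNAs, and Zar1 is needed for the embryo to pass its first divisions. Zar1 (probe set 10530496) read 11.42, 11.46, 11.43 and 11.50 in the double knockout, 11.30, 11.43, 11.49 and 11.40 in the Hdac2 knockout, 11.45, 11.50, 11.64 and 11.35 in the Hdac1 knockout and 11.44, 11.39, 11.14 and 11.35 in wild type. Every knockout group overlapped wild type, in which the third array lay lowest. The difference from wild type was 0.12 in the double knockout (95% confidence interval -0.03 to 0.27; limma adjusted p = 0.216), 0.07 in the Hdac2 knockout and 0.15 in the Hdac1 knockout. For the dimmer Zar1 probe set (10522391) the difference of the double knockout was 0.01 (limma adjusted p = 0.952), so neither probe set was called. Zar1l (probe set 10535931) read 11.49, 11.58, 11.41 and 11.58 in the double knockout and 11.54, 11.52, 11.60 and 11.54 in wild type. The single knockouts lay within 11.47 to 11.65, and all groups overlapped. Its difference in the double knockout was -0.04, with an interval of -0.15 to 0.08 (limma adjusted p = 0.653).

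Ybx2, also called MSY2, is a Y-box protein of germ cells that coats and stabilises mRNA in bulk and is among the more abundant proteins of the mouse oocyte. Its probe set (10377662) read 9.44, 9.28, 9.30 and 9.22 in the double knockout, 9.65, 9.67, 9.56 and 9.63 in the Hdac2 knockout, 9.71, 9.65, 9.68 and 9.66 in the Hdac1 knockout and 9.50, 9.57, 9.37 and 9.49 in wild type. The double knockout lay below both single knockouts with no overlap and overlapped wild type by 1 array on each side, while the Hdac1 knockout lay above all wild-type arrays. Ybx2 fell by 0.17 ± 0.06 (SE) in the double knockout against wild type, to 88.8% of the wild-type signal (limma adjusted p = 0.0239). It differed from wild type by 0.15 in the Hdac2 knockout and 0.19 in the Hdac1 knockout, and neither passed (limma adjusted p = 0.163 and 0.327). The largest contrasts were therefore between knockouts. Ybx2 was lower in the double knockout by -0.36 relative to the Hdac1 knockout (limma adjusted p = 6.3e-05) and by -0.32 relative to the Hdac2 knockout (limma adjusted p = 0.000337). The call against wild type was lost when the fit held only those groups (limma adjusted p = 0.0805), and without wild-type replicate 1, 2 or 4 or double-knockout replicate 2 or 4 (0.0519 to 0.0813). Those against the single knockouts held in every refit.

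Cpeb1 binds the cytoplasmic polyadenylation element, represses mRNAs that carry it, and switches to lengthening their tails when meiosis resumes. The Cpeb1 probe set (10565089) read 10.88, 10.78, 10.82 and 10.88 in the double knockout, 10.76, 10.74, 10.75 and 10.78 in the Hdac2 knockout, 10.77, 10.73, 10.73 and 10.67 in the Hdac1 knockout and 10.73, 10.74, 10.75 and 10.72 in wild type. All double-knockout arrays lay above all wild-type arrays, but by little. The difference was 0.10 ± 0.04 (SE; limma adjusted p = 0.0762) and did not pass. It passed with dim probe sets left out (limma adjusted p = 0.0278), with trended, robust moderation (0.0226) and without double-knockout replicate 2 (0.0489), and shrank to 0.01 with each array centred on its median. Against the Hdac1 knockout Cpeb1 was higher by 0.11 (limma adjusted p = 0.0489), a call at the edge of the threshold that 14 of 16 fits without 1 array did not keep (0.054 to 0.128). Nor was it kept by 5 other alternatives, among them centring on array medians, where the difference was 0.04 (limma adjusted p = 0.54), and quantile normalization, where it was 0.06 (0.291). Of the fits without 1 array, those without Hdac1-knockout replicate 1 and without double-knockout replicate 2 kept it.

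Dazl, a germ-cell RNA-binding protein, promotes translation of maternal mRNAs during oocyte maturation, partly on transcripts that Cpeb1 also binds. The Dazl probe set (10451721) read 10.66, 10.60, 10.64 and 10.74 in the double knockout, 10.76, 10.78, 10.80 and 10.82 in the Hdac2 knockout, 10.72, 10.85, 10.82 and 10.79 in the Hdac1 knockout and 10.69, 10.83, 10.94 and 10.85 in wild type. Of the wild-type arrays, only the first lay among those of the double knockout. Dazl fell by 0.17 ± 0.06 (SE) in the double knockout, to 89.0% of the wild-type signal (limma adjusted p = 0.0258). In the Hdac2 and Hdac1 knockouts it differed by -0.04 and -0.03 (limma adjusted p = 0.778 and 0.928). The double knockout differed from the Hdac1 knockout by -0.14 and from the Hdac2 knockout by -0.13, short of the threshold (limma adjusted p = 0.0674 and 0.0936). These passed under 7 and 4 alternatives, respectively, among them both other scalings (limma adjusted p = 0.00887 to 0.0371). As for Ybx2, the call against wild type was lost in the fit of those groups alone (limma adjusted p = 0.079), and without wild-type replicate 2, 3 or 4 or double-knockout replicate 2 or 3 (0.0518 to 0.0902). That difference was -0.26 with each array centred on its median (limma adjusted p = 0.00223) and -0.20 after quantile normalization (0.00861).

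Zfp36l2 works on the opposite side of the balance: it binds AU-rich elements, recruits the deadenylation machinery and so promotes mRNA decay, and female mice with impaired Zfp36l2 are infertile. Its probe set (10453272) read 7.88, 7.58, 7.77 and 7.71 in the double knockout, 7.36, 7.29, 6.96 and 7.09 in the Hdac2 knockout, 6.85, 6.90, 7.04 and 6.99 in the Hdac1 knockout and 6.94, 7.00, 6.95 and 7.04 in wild type. The double knockout lay above every other array, and the Hdac2 knockout had 3 arrays above wild type and 1 within it. Zfp36l2 rose 1.69-fold in the double knockout, by 0.75 ± 0.08 (SE) on the log2 scale (limma adjusted p = 1.73e-06). It differed by 0.19 in the Hdac2 knockout (95% confidence interval 0.02 to 0.37; limma adjusted p = 0.215) and by -0.04 in the Hdac1 knockout (limma adjusted p = 0.952), neither of them called. The rise was 0.79 over the Hdac1 knockout (limma adjusted p = 1.03e-06) and 0.56 over the Hdac2 knockout (limma adjusted p = 5.77e-05). All of the 23 refits run kept its call against wild type.

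The remaining genes encode parts of repressed mRNA particles. Ddx6 is a DEAD-box helicase that silences mRNA and links deadenylation to decapping, Lsm14b is an oocyte partner in such particles, and Patl2 is the germline relative of the decapping factor Patl1. Variants of human PATL2 are known to arrest oocyte maturation. Ddx6 (probe set 10584777) read 10.91, 10.92, 10.94 and 10.98 in the double knockout, 11.08, 10.98, 10.87 and 10.97 in the Hdac2 knockout, 10.94, 10.73, 10.76 and 10.98 in the Hdac1 knockout and 10.85, 10.87, 11.07 and 10.89 in wild type. The groups overlapped throughout, and the double knockout, with an SD of 0.03, varied less than wild type with 0.10. Its difference in the double knockout was 0.02 (95% confidence interval -0.13 to 0.16; limma adjusted p = 0.894).

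Lsm14b (probe set 10479297) read 10.63, 10.54, 10.61 and 10.63 in the double knockout, 10.64, 10.64, 10.62 and 10.55 in the Hdac2 knockout, 10.73, 10.74, 10.69 and 10.70 in the Hdac1 knockout and 10.55, 10.61, 10.63 and 10.59 in wild type. Its difference in the double knockout was 0.01, the smallest of the 9 as deposited (95% confidence interval -0.09 to 0.10; limma adjusted p = 0.938). With each array centred on its median it was -0.09, and Cpeb1, Zar1 and Ddx6 then differed by less. The Hdac1 knockout stood apart from the other groups, with all of its arrays above all of theirs, yet its difference of 0.12 from wild type did not pass over the array (limma adjusted p = 0.455). Between the double and Hdac1 knockouts Lsm14b differed by -0.11, with limma adjusted p = 0.057, which passed under 4 alternatives, 2 of them other scalings (0.00383 with each array centred on its median, 0.00982 after quantile normalization).

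Patl2 (probe set 10486935) read 9.56, 9.40, 9.26 and 9.47 in the double knockout, 9.89, 10.10, 9.98 and 10.02 in the Hdac2 knockout, 10.02, 10.12, 10.12 and 10.14 in the Hdac1 knockout and 10.11, 10.13, 10.11 and 10.14 in wild type. Double-knockout arrays were below all others, and Hdac2-knockout arrays were all below the lowest wild-type array. Patl2 fell by 0.70 ± 0.06 (SE) in the double knockout, to 61.5% of the wild-type signal (limma adjusted p = 2.24e-07). The difference was -0.13 in the Hdac2 knockout (95% confidence interval -0.26 to 0.01; limma adjusted p = 0.304) and -0.02 in the Hdac1 knockout (limma adjusted p = 0.962). Relative to the single knockouts, Patl2 in the double knockout fell by 0.68 against the Hdac1 knockout (limma adjusted p = 3.08e-07) and by 0.57 against the Hdac2 knockout (limma adjusted p = 3.25e-06). Its fall against wild type was called in all 23 refits, between -0.79 and -0.65.

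**Figure D2:**
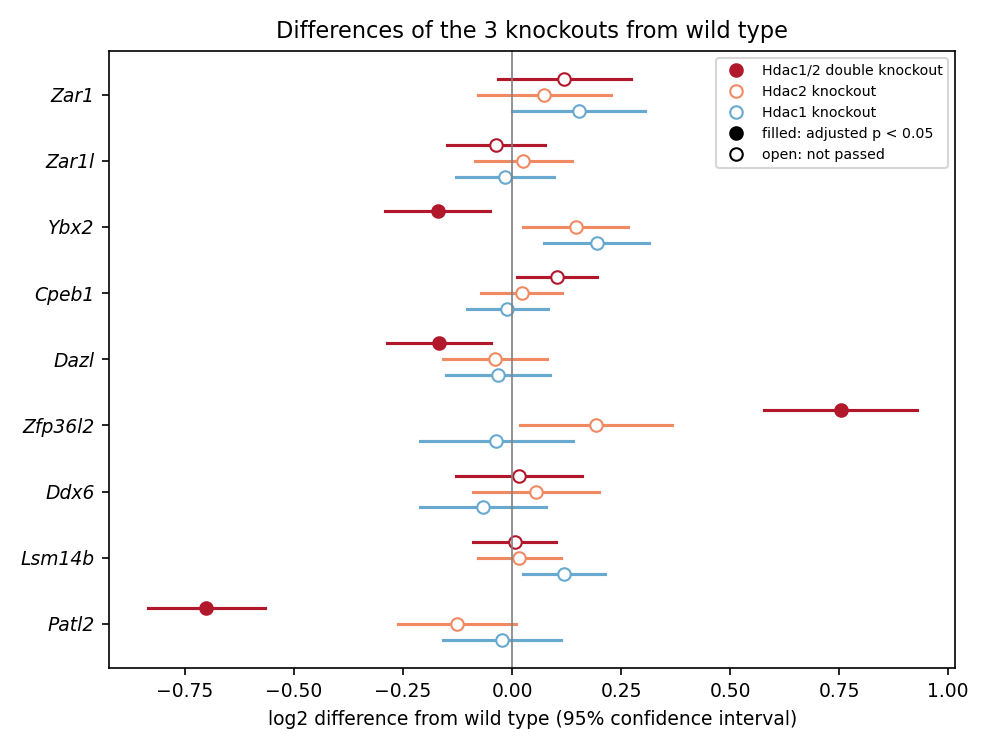
Log2 difference from wild type (horizontal axis) for the 9 genes in the Hdac1/2 double knockout, the Hdac2 knockout and the Hdac1 knockout, as points with 95% confidence intervals. Filled points passed at an adjusted p under 0.05: Patl2, Ybx2 and Dazl below 0 and Zfp36l2 above it, all in the double knockout.

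None of the 9 genes was called in either single knockout. In the Hdac2 knockout 0 of 9 were called by limma, beside 5.59% of all tested probe sets, with 2 at an unadjusted p under 0.05 (Ybx2 and Zfp36l2). In the Hdac1 knockout 0 of 9 were called, beside 0.0707% of probe sets, with 3 at an unadjusted p under 0.05 (Ybx2, Zar1 and Lsm14b). Between the single knockouts, Hdac1 knockout minus Hdac2 knockout, 0 of 9 were called, beside 5.78% of probe sets, and 2 had an unadjusted p under 0.05 (Zfp36l2 at -0.23 and Lsm14b at 0.10). Without Hdac2-knockout replicate 3 that difference of Zfp36l2 passed (limma adjusted p = 0.0405). The comparisons with wild type share the 4 wild-type arrays, so a chance deviation in those arrays enters all of them.

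Patl2, Ybx2 and Zfp36l2 also separated the double knockout from both single knockouts. Against the Hdac1 knockout 4 of 9 were called, beside 38.7% of probe sets: Zfp36l2 and Cpeb1 were higher, Patl2 and Ybx2 lower. Against the Hdac2 knockout 3 of 9 were called, beside 33.7% of probe sets: Zfp36l2 was higher, Patl2 and Ybx2 lower. These comparisons share the double-knockout arrays. In the order of levels over the 4 genotypes, 3 genes had 1 pair of neighbours that passed the test. For Patl2 the double knockout lay below the Hdac2 knockout, for Zfp36l2 it lay above the Hdac2 knockout, and for Ybx2 it lay below wild type, with the overlap and the lost calls given above. For Zar1, Zar1l, Cpeb1, Ddx6, Lsm14b and Dazl no neighbours in the order passed.

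The interaction asks whether the double knockout departs from the sum of both single-knockout differences on the log2 scale. It passed for 3 of 9 genes, beside 23.3% of probe sets. Patl2 lay 0.55 below the sum: the double knockout differed from wild type by -0.70, where the single differences added to -0.15 (interaction -0.55 ± 0.09 SE; limma adjusted p = 0.000318). For Zfp36l2 the double knockout differed by 0.75 and the single differences added to 0.16 (interaction 0.60 ± 0.12 SE; limma adjusted p = 0.00137). In Ybx2 the directions were opposed, with -0.17 in the double knockout and a sum of 0.34 over the single knockouts (interaction -0.51 ± 0.08 SE; limma adjusted p = 0.000219). Ybx2 had thus a larger interaction than its change against wild type, because both single-knockout means lay on the other side of wild type. Neither of those single differences was called, and the same wild-type arrays enter both of them and the interaction. Dazl, although called in the double knockout, had an interaction of -0.10 that did not pass (limma adjusted p = 0.437).

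**Figure D3:**
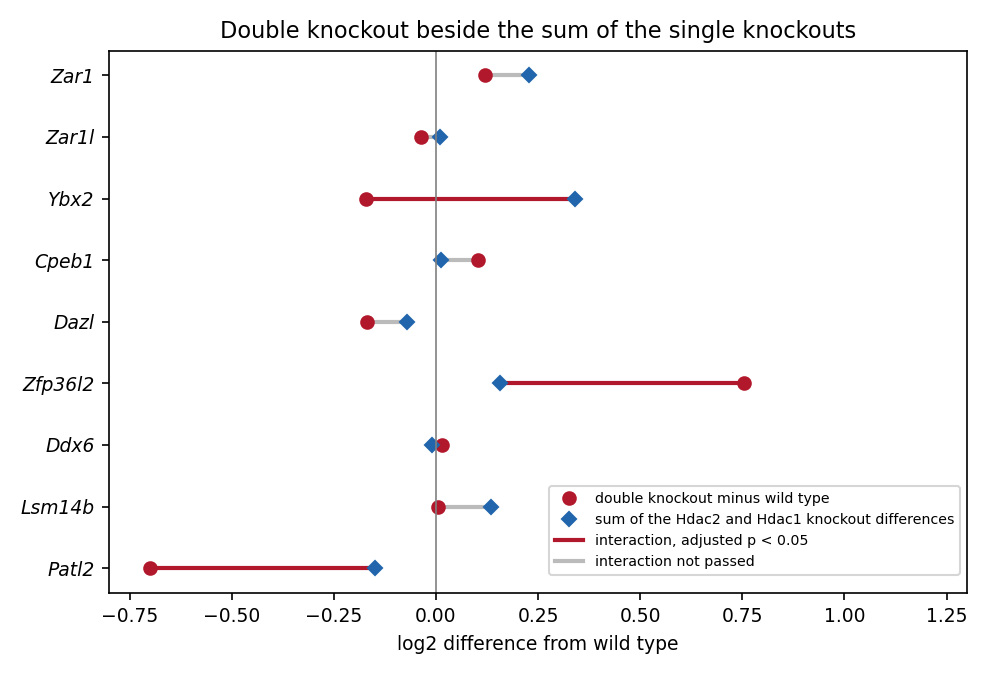
Log2 difference of the Hdac1/2 double knockout from wild type (circles) beside the sum of the Hdac2- and Hdac1-knockout differences (diamonds) for the 9 genes. Red connecting lines mark the interactions that passed, for Ybx2, Zfp36l2 and Patl2, with lengths of 0.51, 0.60 and 0.55.

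Close relatives of these genes did not share one direction in the double knockout, and were looked up by family. Among the CPEB genes, Cpeb2 rose 2.16-fold (1.11 ± 0.09 SE; limma adjusted p = 4.55e-08), with arrays of 9.64 to 9.87 in the double knockout and 8.54 to 8.71 in wild type. Cpeb4 rose by 0.33 (limma adjusted p = 0.000515) and Cpeb3 fell by 0.60 (limma adjusted p = 1.26e-06), while Cpeb1 was not called. In the Y-box family, Ybx1, the form found in most cells, rose by 0.32 (limma adjusted p = 8.69e-05), Ybx3 differed by -0.07 (limma adjusted p = 0.326) and Ybx2 fell. Patl1 fell by 0.30 (limma adjusted p = 0.00653), as did its germline relative Patl2 by 0.70. Lsm14a fell by 0.20 (limma adjusted p = 0.00893), beside an uncalled Lsm14b. Zfp36l1 rose (limma adjusted p = 0.000225), with double-knockout arrays spread from 4.22 to 5.50 against 3.67 to 4.14 in wild type. Its wild-type mean of 3.88 lay below every array's median, at a level not shown to be above background, so no fold is given, and Zfp36 differed by 0.30 (limma adjusted p = 0.214). Each of these called relatives kept its call and direction in every refit run on it, a minimum fold aside.

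**Figure D4:**
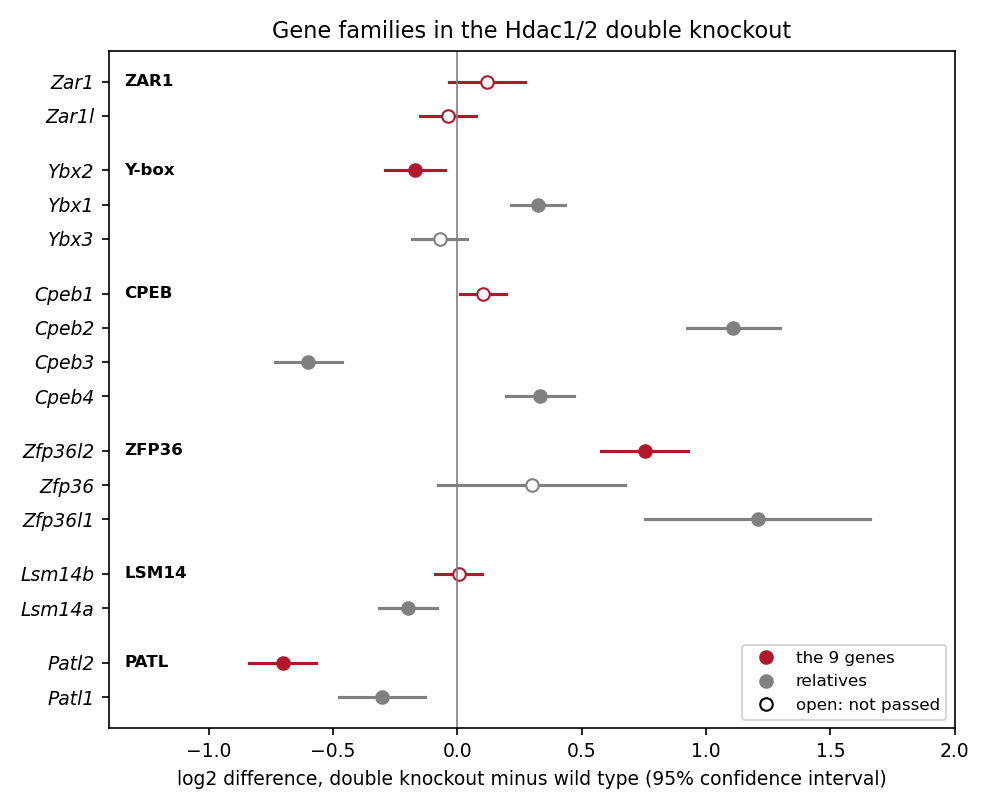
Log2 difference of the Hdac1/2 double knockout minus wild type (horizontal axis), with 95% confidence intervals, for 6 gene families that hold 7 of the 9 genes. Filled points passed at an adjusted p under 0.05; Cpeb2 lies at 1.11 and Patl2 at -0.70, Zfp36l1 was dim in wild type so that the size of its difference is uncertain, and members of the CPEB and Y-box families lie on both sides of 0.

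A wider list of 33 further factors of storage and translational control moved both ways in the double knockout: 10 rose, 9 fell and 14 did not pass. That is 57.6% called, beside 38.3% of all tested probe sets, of which 18.5% rose and 19.8% fell. The median difference was -0.01, the same as over all probe sets, while the median absolute difference was 0.28 against 0.15 over all. Most of the 33 are bright, and bright probe sets were called more often. With dim probe sets left out 29 factors remained, of which 9 rose and 13 fell. In that fit 6551 of 10609 probe sets were called, with a median absolute difference of 0.25. With each array centred on its median the split of the 33 was 10 higher and 16 lower. Besides Cpeb2 and Cpeb3, the smallest adjusted p-values belonged to Pum2, a Pumilio repressor of translation, which fell by 0.50 (limma adjusted p = 3.28e-06), and Pabpc1, the general poly(A)-binding protein, which rose by 0.55 (3.66e-06). Nanos1, which with Pumilio represses mRNAs in germ cells, rose by 0.44 (7.4e-06), and Msi1, a Musashi translational regulator, by 0.84 (3.94e-05). The wild-type mean of Msi1, 4.62, lay close to the array medians, at a level not shown to be above background. The size of its rise is therefore uncertain. For 4 of the 7 factors with several probe sets (Ddx3x, Eif4enif1, Eif4e and Tent2) the calls of those probe sets differed. In the Hdac2 knockout 4 of the 33 were called (12.1%), beside 5.59% of probe sets. With dim probe sets left out, 1329 of 10609 probe sets were called there, in a fit whose called factors are not given here. Of the 4, Cpeb2 (0.51; limma adjusted p = 0.00277), Msi2 (0.65; 0.00167) and Ybx1 (0.18; 0.0495) were higher and Khdrbs1, the RNA-binding protein Sam68, was lower (-0.51; 0.000144). The double knockout did not show that fall: Khdrbs1, read by the brighter of its 2 probe sets, differed there from wild type by 0.03. It was called there in 0 of 23 refits. Msi2, Ybx1 and Khdrbs1 were named after their values were seen. The Ybx1 call in the Hdac2 knockout lay at the edge of the threshold, and refits of the 4 calls there are not given.

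A second list held 24 stored mRNAs that such factors control, 23 of them measured (Ccnb1 was not). In the double knockout 3 rose, 9 fell and 11 did not pass, 52.2% called beside the same 38.3% of probe sets, with a median difference of -0.11 beside -0.01 over all probe sets. With dim probe sets left out 3 of the 23 rose and 12 fell, beside 2755 and 3796 of 10609 probe sets, whose median difference was -0.05. Scaling shifted the split of the 23, to 2 higher and 13 lower after centring on array medians and likewise after quantile normalization. Ing2, a chromatin reader of the Sin3 complex, rose 3.05-fold (1.61 ± 0.08 SE; limma adjusted p = 2.18e-10). Tex19.1, a germ-cell protein that restrains retrotransposons, rose by 0.47 (limma adjusted p = 0.000381), and Ccnb2, named after its values were seen, was the other called as higher (0.17; 0.0403), a call that 12 of 23 refits kept and that ended with each array centred on its median (0.08; limma adjusted p = 0.324). The fallers were led by Mos, the kinase that activates the MAP kinase pathway in meiosis and is a classic mRNA under Cpeb1 control, by 0.50 (limma adjusted p = 3.83e-06). Mos read 9.46 to 9.67 in the double knockout and 10.01 to 10.04 in wild type. The decapping genes Dcp1a and Dcp2, themselves stored as dormant mRNAs, fell by 0.35 (2.69e-05) and 0.36 (0.00013), and Plat, the tissue plasminogen activator on which cytoplasmic polyadenylation was studied early, fell by 0.37 (4.33e-05). In the Hdac2 knockout 0 of 23 were called by limma, beside 5.59% of probe sets, with 4 at an unadjusted p under 0.05.

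**Figure D5:**
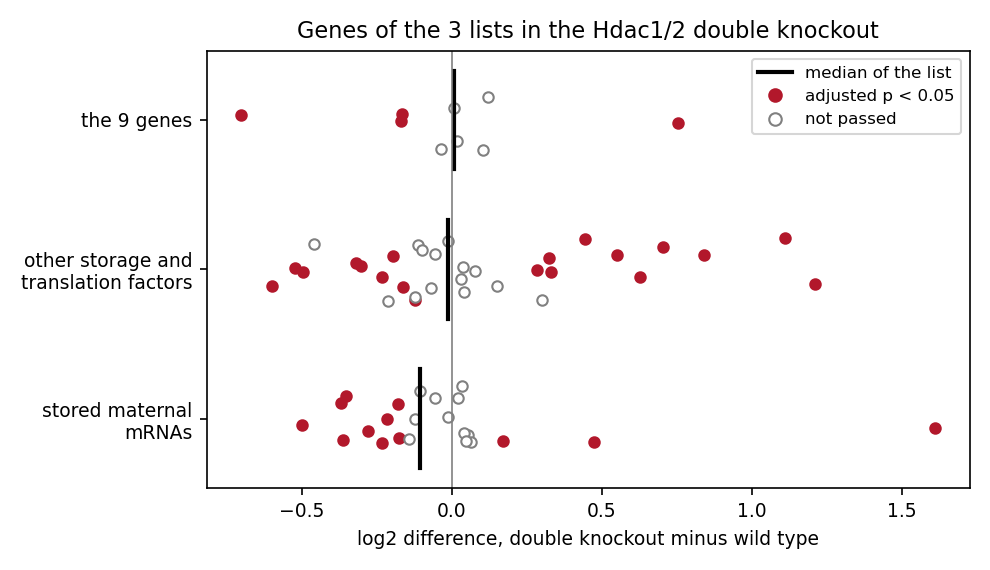
Log2 difference of the Hdac1/2 double knockout minus wild type (horizontal axis) for each gene of the 3 lists, with the median of each list as a black bar. Filled red points passed at an adjusted p under 0.05; the 9 genes hold 4 such points of 9, the further factors 19 of 33 and the stored mRNAs 12 of 23, on both sides of 0.

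Summed levels of marker lists differed between groups and are given beside these results. The linear signals of the 10 measured granulosa markers summed to 637 to 745 on the double-knockout arrays and 1095 to 1176 on wild-type arrays, with 1020 to 1135 in the Hdac2 knockout and 1090 to 1230 in the Hdac1 knockout. Nr5a2 alone read 356 to 473 in the double knockout and 851 to 924 in wild type, and the other 9 granulosa markers summed to 269 to 283 in the double knockout and 235 to 261 in wild type. The lower sum thus came from Nr5a2. On the log2 scale Nr5a2 (-1.07) and Kitl (-0.37) fell and Inha (0.59) and Gata4 (0.38) rose, while the defining markers Foxl2, Fshr, Amh and Amhr2 lay below the median tested probe set and were not called. Blood, immune and endothelial markers, 5 of 8 measured, summed to 208 to 259 in the double knockout and 404 to 461 in wild type, with Pecam1 lower by -1.37 and Cd68 higher by 0.38. Without Pecam1 the other 4 summed to 94.3 to 110 in the double knockout and 77.7 to 99.2 in wild type, so the lower sum came from that gene. Theca and stroma markers summed to 114 to 118 in the double knockout and 111 to 117 in wild type, with 0 of 7 called by limma and 0 at an unadjusted p under 0.05. The oocyte markers summed to 34923 to 35418 in the double knockout, 34629 to 35299 in the Hdac2 knockout, 35557 to 36368 in the Hdac1 knockout and 35639 to 36475 in wild type. These sums, which were not tested, were lower in the double knockout and the Hdac2 knockout alike. In the Hdac2 knockout 0 of the 11 oocyte markers were called by limma and 0 had an unadjusted p under 0.05. The part of these markers in the results on the 9 genes was not tested.

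The genes whose pattern over the 16 arrays was most like that of a member were found by the root mean square distance of log2 values, each gene set relative to its own wild-type mean, among 9216 genes above the median level. They were picked by closeness on these same arrays, so differences in the double knockout like the member's follow from the choice. Patl2 was nearest to Accsl (distance 0.046), then to Nlrp4c, of an oocyte-rich family of NLR proteins (0.0665), and Mospd2 (0.0704). In the double knockout these differed from wild type by -0.72, -0.66 and -0.72. Zfp36l2 was nearest to Sidt2 (0.089), to the chaperone gene Dnajb1 (0.103) and to the laminin gene Lamc1 (0.108), with differences of 0.73, 0.59 and 0.80. For Ybx2 they were Scap, the escort of sterol regulatory factors (0.0643), Ccdc88c (0.0708) and Wasf2, an actin regulator (0.0726), with -0.16, -0.17 and -0.20. Lsm14b, with the smallest difference in the double knockout as deposited, was nearest to Clptm1 (0.0398), Cdv3 and Tmem131 (0.0476 each), none of which was called there.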

How the data were processed

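Labelled cDNA from 16 pooled oocyte samples was read on 1 array each. The deposited table holds 1 log2 value per probe set and array for 35556 probe sets, from 2.07 to 12.89. No source states the base of the logarithm, so base 2 was inferred from that range, and every fold change rests on it. The values were used as the authors deposited them. Per the submitters' processing notes MAS5 was used, with no version, and the series' design text adds GeneSpring, SAM and EASE with a 1.4-fold limit. The sources used here do not say how these made the values, and name no genome build. Columns left unused numbered 0.

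Probe sets were named through the platform annotation: 21218 had exactly 1 gene symbol and were tested, 1881 had several and 12457 none. A gene with several probe sets is represented by the one with the highest mean over the arrays. A single limma 3.58.1 model in R 4.3.3 (a mean per genotype, 12 residual degrees of freedom, moderated variances) gave 7 contrasts with two-sided p-values, adjusted over the 21218 by Benjamini and Hochberg's method. The fit was tested on simulated data. Errors are SDs over 4 arrays or limma's SEs, the number of arrays limits the precision, and the p-values measure the spread between pools whose mice are not listed. Counts of called genes are read against the share of all tested probe sets called in that comparison.

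The 9 genes and both lists were chosen with earlier results of these data known. The text names the 9 genes, Hdac1 and Hdac2, up to 6 called genes per list by smallest adjusted p in the double knockout, close relatives, and for the 3 most changed members and the least changed one the 3 nearest genes. The alternatives were 2 other scalings, leaving out dim probe sets, all probe sets, trended and robust moderation, replicate number as a block, only the groups compared, the 1.4-fold limit, and each array left out in turn. Promoter sequences are RefSeq's (GRCm38.p6).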

Additional observations from a re-analysis of the deposited data

Results flagged for a closer look

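In the Hdac1 knockout, 1 Patl2 array (replicate 1, 10.02, against 10.12 to 10.14 on the others) lay apart, with a gap to its nearest neighbour of 0.852 of the group's range, above Dixon's 95% critical value. It was the 1 such case in 40 sets of 4 arrays checked, and chance gives about 1 in 20. The change of 3 genes in the double knockout differed from the sum of their changes in the single knockouts by the interaction term, which was -0.55 for Patl2, 0.60 for Zfp36l2 and -0.51 for Ybx2, all past the threshold.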

How the results depend on the processing

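Over the refits, 319 alternative values belonged to differences of the 9 genes that had been called, of which 288 kept the call and 31 lost it, 19 others gained one, and 0 called values changed sign. The replicate numbers did not pair the arrays: deviations of same-numbered arrays correlated at -0.148 to 0.0866, with 0 of 24 pairs over 0.1, and 2 of 16 arrays correlated best with their own number. With the replicate number as a block, 4 of the 9 genes were called in the double knockout against wild type, 3 against the Hdac1 knockout and 3 against the Hdac2 knockout, and 1 stored mRNA was called in the Hdac2 knockout against wild type. With only the groups compared, 2 of the 9 genes were called in the double knockout against wild type (Patl2 and Zfp36l2). At a minimum of 1.4-fold 2 genes of the 9 remained against wild type and 2 against the Hdac1 knockout, with 9 further factors and 2 stored mRNAs against wild type, and the probe sets called numbered 3472 of 8122 (double knockout against wild type), 454 of 1187 (Hdac2 knockout against wild type), 3518 of 8220 (double against Hdac1 knockout), 2576 of 7155 (double against Hdac2 knockout), 469 of 1226 (Hdac1 against Hdac2 knockout) and 2685 of 4939 (interaction), by the construction of that limit. Leaving out dim probe sets raised the probe sets called in the Hdac1 knockout to 24, against 15, and called 2 stored mRNAs in the Hdac2 knockout, and trended, robust moderation called 3 there. Leaving out 1 array gave 2 to 4 of the 9 genes in the double knockout against wild type (2 without wild-type replicate 2 or 4) and 0 to 1 between the single knockouts. It gave 0 to 1 stored mRNAs in the Hdac2 knockout, and 683 to 1267 probe sets in the Hdac2 knockout, 10 to 30 in the Hdac1 knockout and 678 to 1364 between the single knockouts. The extremes came without Hdac2-knockout replicate 1 (683), wild-type replicate 4 (10), Hdac1-knockout replicate 4 (30) and Hdac2-knockout replicate 4 (678). Scaling moved the split over all probe sets in the double knockout: 3924 higher and 4198 lower as deposited, 2895 and 6506 after centring on array medians, 3382 and 5025 after quantile normalization. Centring took the median of all probe sets to -0.10, against -0.01 as deposited. Under both scalings 4 of the 9 genes were called there, the difference of Lsm14b turned to -0.09 and -0.02 and that of Ddx6 to -0.08 and -0.04, none of them called, and Dazl was called against both single knockouts (limma adjusted p = 0.00887 to 0.0371). The cause of these shifts was not tested.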
